A study of Homo sapiens with 5 samples.

Results

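The genes of this account were the human ATP-binding cassette (ABC) transporter genes, taken by symbol from the gene table of the deposited 80% matrix: the letters ABC, a subfamily letter from A to G and a number. The rule held for 45 of 36601 genes, and for all 45 both the RNA counts and the open-chromatin peaks at their starts were read. CFTR, TAP1 and TAP2 belong to the same superfamily under other symbols and served only for comparison. Of the 45 genes, 31 had at least 200 UMIs (unique molecular identifiers, which count captured RNA molecules) in the 80% portion, and 14 had between 5 and 124.

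ABC proteins bind and hydrolyse ATP, and most of them use this energy to move a substrate across a membrane. Those of the plasma membrane export drugs, conjugates, bile salts and lipids, others serve the mitochondrion, lysosome or peroxisome, and the E and F subfamilies lack a membrane domain and act on ribosomes. In lung tumours the family is best known for ABCB1, ABCC1 and ABCG2, which pump out anticancer drugs, and in the healthy alveolus for ABCA3, which fills the lamellar bodies of surfactant-making cells with lipid.

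Cells of the human lung adenocarcinoma lines A549, HCC827, H838, H1975 and H2228 were grown apart in RPMI 1640 medium, frozen, mixed in equal numbers and processed to sorted nuclei, and the labels name no drug or genetic change. The 10x Multiome assay read RNA and open chromatin (ATAC) of the same nuclei, and the droplets were divided into a 20% and an 80% portion, each of which gave 1 RNA and 1 ATAC library. There were thus no replicate libraries, nuclei of 1 library are not replicates, and no test was made anywhere in what follows. The intervals given are exact 95% intervals that cover counting error only.

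The deposited matrices name no line for a nucleus, so the 6557 nuclei of the 80% portion were divided by their RNA into 5 clusters, and the ABC genes were left out of that step so that their own levels did not shape the clusters. Cluster 0 (2486 nuclei) was led by PPP2R2B, cluster 1 (1459) by RBFOX3, cluster 2 (1449) by AC069277.1, cluster 3 (835) by AC073365.1 and cluster 4 (328) by AC090578.1. ALDH1A1 stood at 5363 CPM (UMIs of the gene per 1000000 UMIs of the cluster) in cluster 1, and EGFR at 7229 CPM in cluster 4. Clusters are named by number only and were not matched to lines. Cluster 3 separated into 3a (469 nuclei) and 3b (366 nuclei) when 6 clusters were asked for. The median depth per nucleus was 15406.5 UMIs in cluster 0, 9140 in cluster 1, 12670 in cluster 2, 15872 in cluster 3 and 11962.5 in cluster 4. All 6 epithelial markers passed 200 UMIs, with a summed level between 1671 CPM in cluster 2 and 10482 in cluster 1, and KRT7 and KRT18 were nowhere under 301 and 725 CPM. EPCAM, CDH1 and KRT19 fell to 23.2, 4.72 and 104 CPM in cluster 2, against 763, 199.9 and 1548 in cluster 4. Of the markers of other cell types, 1 of 4 immune (CD68), 1 of 3 endothelial (PECAM1) and 1 of 4 fibroblast genes (COL1A1, with 242 CPM in cluster 0) passed, and PTPRC, CD3E, LYZ, VWF, CDH5, COL3A1, DCN and PDGFRA had 42 UMIs or fewer each. Of 4 lung lineage markers 3 passed, with a summed level from 5.35 CPM in cluster 2 to 183 in cluster 4. The 1286 nuclei of the 20% portion were each given the cluster whose profile they followed most closely. The same step put 97.1% of the 80% nuclei back where they had been. The profiles were made from those same nuclei, so this share does not measure how well the 20% nuclei were placed. In all 159 barcodes were called in both portions.

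The ABC genes together held 163140 UMIs, or 1709 CPM of the 80% portion, and 42.7% of these UMIs belonged to ABCC3, ABCC1 and ABCC2. Nuclear RNA is rich in introns, so long genes can collect more UMIs, though whether they did so here was not tested. Scaled by the length of the gene, ABCF1 had the highest level with 541 CPM per 100 kb of gene span. ABCC3 followed with 457 and ABCE1 with 418. Without this scaling ABCC3 was highest with 263 CPM, and ABCF1 had 140. ABCB1, ABCC12 and ABCB5 were near the other end of that scale with 0.259, 0.153 and 0.123 CPM per 100 kb. A nucleus carried a median of 12 different ABC genes with a UMI in cluster 0, 9 in clusters 1 and 2, 10 in cluster 3 and 8 in cluster 4. These counts were not thinned and depend on depth, which had medians of 15406.5, 9140, 12670, 15872 and 11962.5 UMIs in clusters 0 to 4. The summed level of the ABC genes was highest in cluster 1, with 2344 CPM against 1936 in cluster 0.

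A gene was called high where its highest cluster was at least 2-fold above the next, and low where its lowest cluster was at most 0.5 of the next lowest. Of the 31 ABC genes with enough UMIs, 7 were called high, where the same rule called 15.6% of 14874 genes, and 9 were called low, against 13.9% of genes. Those described here were ABCA4 and ABCA13 in cluster 0, ABCC2 and ABCC4 in cluster 1, ABCA10 in cluster 2 and ABCA12 in cluster 4. Of the 31 genes, 6 were low in cluster 2, where 7.09% of all genes had their low call. These were ABCA3, ABCA12, ABCA13, ABCC3, ABCC9 and ABCG2. They made up 6 of the 9 low calls, and over all genes cluster 2 held 1054 of 2070 low calls. Nuclei called as doublets were kept, and made up 8.13%, 4.46%, 0.483%, 10.5% and 7.01% of clusters 0 to 4. With those nuclei removed 7 of the 31 genes were called low, against 15.8% of all genes. ABCC2 and ABCC6 were low in cluster 3 and ABCA1 in cluster 1, where 0.719% and 2.47% of all genes had theirs, and no ABC gene was low in cluster 0 or 4 (1.39% and 2.25% of all genes). Over all genes the shares called high were 3.92% in cluster 0, 3.19% in cluster 1, 4.88% in cluster 2, 1.75% in cluster 3 and 1.89% in cluster 4. With cluster 3 as 3a and 3b, 6 of the 31 genes were called high, against 14.0% of all genes. In all 13 genes had a call of either kind, 3 had both and 18 had neither. The median ratio of the highest to the lowest cluster was 4.28 for the 31 ABC genes and 2.52 for all genes tested. By role it was 1.99 for 4 ATPases of ribosomes, 2.32 for 8 genes of organelles and 4.53 for 7 genes of drug and conjugate efflux. It was 7.85 for 2 genes of sterol export and 11.4 for 8 other A-subfamily lipid transporters. For 2 other plasma membrane proteins of the B and C subfamilies it was 18.3, between 5.28 for ABCC6 and 31.4 for ABCC9. The A-subfamily ratios included 111 for ABCA12 and 54.2 for ABCA13, whose lowest clusters had 0.0524 and 0.157 CPM. These last 2 groups also held the fewest UMIs, 8580 and 1360, against 84476 for efflux and 32904 for the ATPases. In the 20% portion 24 of the 31 genes had the same highest cluster, as did 76.9% of all genes tested.

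**Figure D1:**
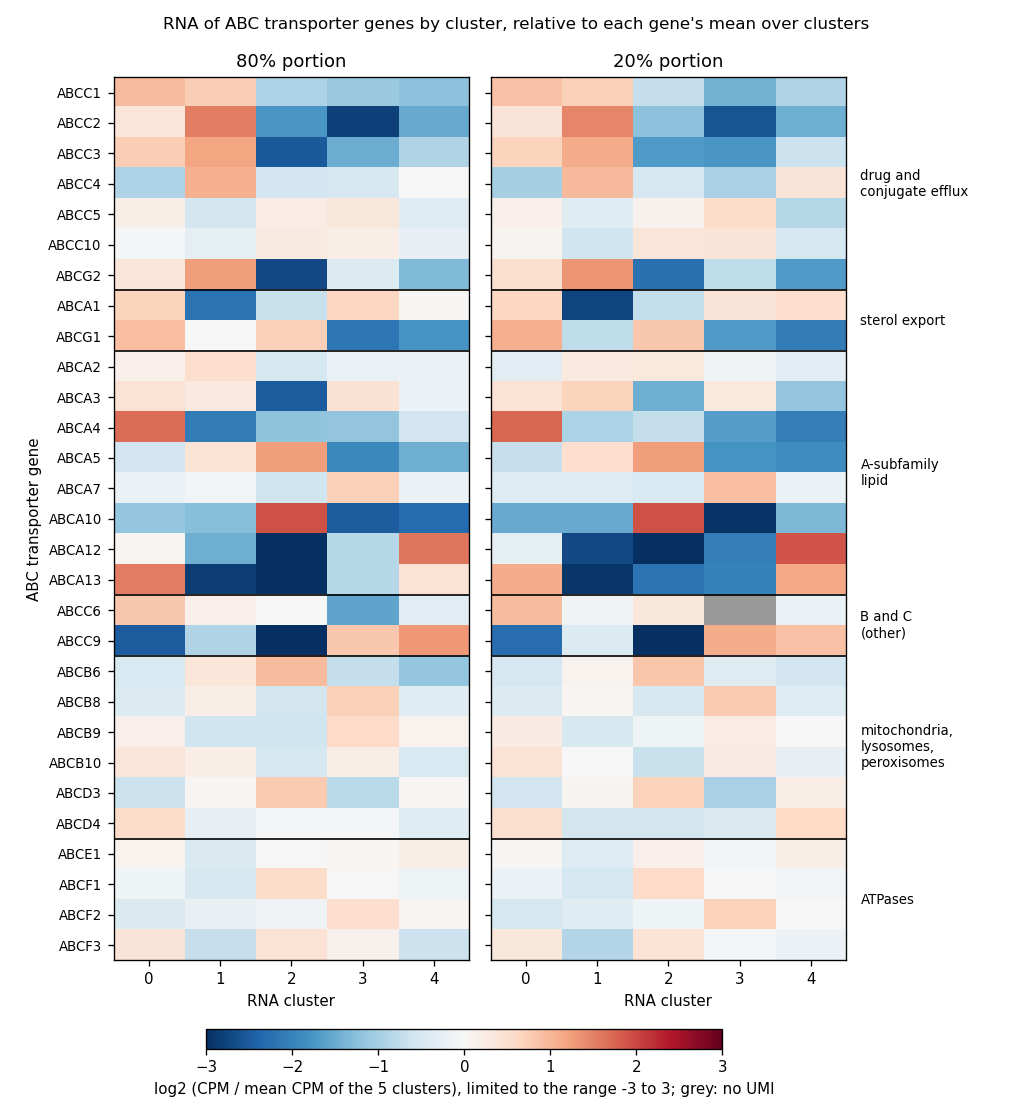
RNA of ABC transporter genes with at least 200 UMIs, as log2 of the CPM in a cluster over the mean CPM of the 5 clusters, for the 80% portion (left) and the 20% portion (right). Rows are grouped by the role of the protein. ABCC1, ABCC2 and ABCC3 are red in clusters 0 and 1 and blue in the others in both portions, though ABCC2 is pale in cluster 0. The 4 ATPase genes at the foot have no deep colour.

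The 8 exporters of drugs and conjugates together gave 1114 CPM in cluster 0, 1675 in cluster 1, 319 in cluster 2, 335 in cluster 3 and 410.1 in cluster 4. ABCC1, ABCC2 and ABCC3 made up most of this sum, and in each of the 3 genes clusters 0 and 1 lay above the other clusters.

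ABCC1 (MRP1, ENSG00000103222, chr16:15949577-15949616, plus strand; the interval spans the annotated starts on GRCh38, here and below), which exports glutathione conjugates and several cytotoxic drugs, had 349 CPM in cluster 0, 302 in cluster 1, 95.7 in cluster 2, 84.0 in cluster 3 and 77.0 in cluster 4. Clusters 0 and 1 were at least 3.15-fold above the others, while cluster 0 exceeded cluster 1 by only 1.16-fold (95% counting interval 1.12 to 1.20). The counts of the 20% portion gave 419 CPM in cluster 0, 379 in cluster 1, 139.7 in cluster 2, 85.6 in cluster 3 and 123 in cluster 4, again with 2 high and 3 low clusters.

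ABCC2 (MRP2, ENSG00000023839, start at chr10 position 99782640, plus strand), the pump for bilirubin glucuronides and glutathione conjugates at the bile canaliculus, had 266 CPM in cluster 0, 601 in cluster 1, 62.0 in cluster 2, 29.7 in cluster 3 and 72.7 in cluster 4. Cluster 1 exceeded cluster 0 by 2.26-fold (95% counting interval 2.19 to 2.32), and cluster 0 exceeded the next cluster by 3.66-fold. The lowest cluster was cluster 3, at 0.479 of cluster 2. The 20% portion showed 294 CPM in cluster 0, 618 in cluster 1, 95.7 in cluster 2, 37.2 in cluster 3 and 82.2 in cluster 4, the same order except that clusters 2 and 4 changed places.

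ABCC3 (MRP3, ENSG00000108846, chr17:50634777-50634881, plus strand), which exports glucuronides and bile salts across the basolateral membrane, had 366 CPM in cluster 0, 494 in cluster 1, 38.3 in cluster 2, 77.6 in cluster 3 and 118 in cluster 4. It was highest in cluster 1, by 1.35-fold (95% counting interval 1.31 to 1.39) over cluster 0, and the step below cluster 0 was 3.11-fold. Cluster 2 was lowest, at 0.494 of cluster 3, and this call is near its limit: it was lost when nuclei called as doublets were removed. In the 20% portion ABCC3 had 76.0 CPM in cluster 2 and 74.0 in cluster 3, so the lowest place was not the same there.

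A step of at least 2-fold between neighbouring clusters in the order of levels was found in 15 of the 31 genes, against 32.6% of all genes, and a step with exactly clusters 0 and 1 above it in 3 (ABCC1, ABCC2 and ABCC3), against 0.955% of all genes. This pattern was looked for after the values of these genes had been seen, so the count describes them only.

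At the level of nuclei, 86.0% of cluster 0 and 83.8% of cluster 1 had a UMI of all 3 genes, compared with 11.2%, 12.3% and 22.3% of clusters 2, 3 and 4. Cluster 1 had the lowest median depth of the 5, and clusters 2 and 3 were deeper. With every nucleus thinned to 5000 UMIs, which kept 2448, 1426, 1431, 832 and 319 nuclei of clusters 0 to 4, the shares became 44.7%, 59.9%, 1.82%, 2.64% and 2.82%. For ABCC2 alone 96.8% of cluster 1 nuclei had a UMI before thinning and 91.0% after, against 21.2% and 8.88% in cluster 3, the lowest (median depths 9140 and 15872 UMIs). Free RNA in droplets can give UMIs in nuclei of any cluster, and a nucleus without a UMI may still express the gene.

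**Figure D2:**
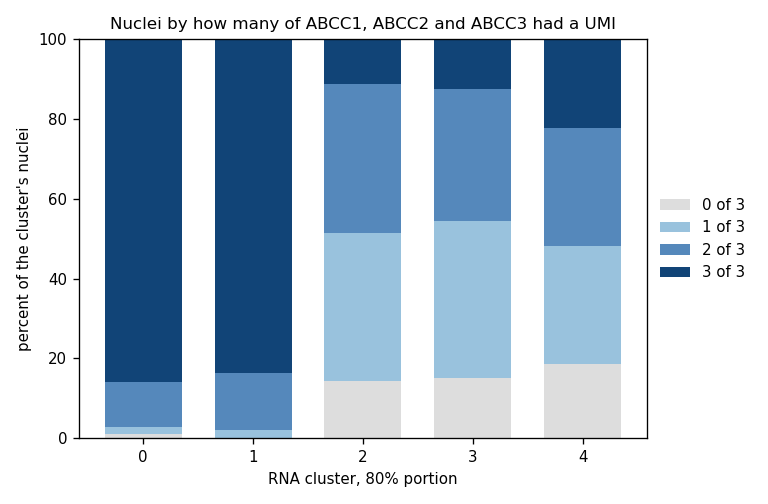
Percent of the nuclei of each RNA cluster of the 80% portion (vertical axis) with a UMI of 0, 1, 2 or all 3 of ABCC1, ABCC2 and ABCC3, without thinning. The darkest part, all 3 genes, fills 86.0% and 83.8% of the bars of clusters 0 and 1 and at most 22.3% of the others.

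ABCC4 (MRP4, ENSG00000125257, chr13:95301319-95301451, minus strand), an exporter of cyclic nucleotides, prostaglandins and nucleoside drugs, had another pattern. Its levels were 45.9 CPM in cluster 0, 185 in cluster 1, 59.0 in cluster 2, 62.5 in cluster 3 and 86.4 in cluster 4, so that cluster 1 was 2.14-fold (95% counting interval 1.93 to 2.38) above cluster 4 and cluster 0 was the lowest. The 20% portion kept cluster 1 highest with 188 CPM, but cluster 4 followed at 123, a ratio of 1.52.

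ABCG2 (BCRP, ENSG00000118777, chr4:88158639-88231628, minus strand), a half-transporter that exports topoisomerase inhibitors, urate and porphyrins, had 30.8 CPM in cluster 0, 57.2 in cluster 1, 3.67 in cluster 2, 18.0 in cluster 3 and 9.55 in cluster 4. Cluster 1 led cluster 0 by 1.85-fold (95% counting interval 1.70 to 2.02), below the limit for a call, and cluster 2 stood at 0.384 of the next lowest. The 20% portion gave 33.6 CPM in cluster 0, 59.6 in cluster 1, 5.07 in cluster 2, 14.0 in cluster 3 and 7.34 in cluster 4, with cluster 2 lowest but not called. The low call was also lost with clusters drawn from ATAC. With 5 such clusters ABCG2 was called high instead, as were 12.4% of all genes, and with 6 it was not. In cluster 2 4.42% of nuclei had an ABCG2 UMI, compared with 39.3% in cluster 1. Thinned to 5000 UMIs, these shares were 1.88% and 23.7%.

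ABCC5 (MRP5) and ABCC10 (MRP7), which export nucleotide analogues and taxanes respectively, were nearly even. ABCC5 had 44.8 CPM in cluster 0, 27.3 in cluster 1, 46.4 in cluster 2, 50.4 in cluster 3 and 30.3 in cluster 4, a range of 1.84-fold from lowest to highest. ABCC10 had 10.8 CPM in cluster 0, 9.15 in cluster 1, 13.2 in cluster 2, 12.7 in cluster 3 and 9.34 in cluster 4, a range of 1.44-fold. Neither gene was called in either direction.

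ABCB1 (P-glycoprotein, MDR1, ENSG00000085563, chr7:87601073-87713323, minus strand), the classical multidrug pump, had only 52 UMIs and did not reach the minimum of 200. Of these, 34 UMIs were in the 328 nuclei of cluster 4, which gave 7.06 CPM (4.89 to 9.86), while clusters 0 to 3 lay between 0.135 and 0.262 CPM on 2 to 8 UMIs each. The UMIs of cluster 4 came from 22 nuclei, or 6.71% of the cluster, and at most 0.345% of any other cluster had a UMI. The 20% portion held 7 ABCB1 UMIs in all, of which 4 fell in cluster 4 (5.87 CPM).

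**Figure D3:**
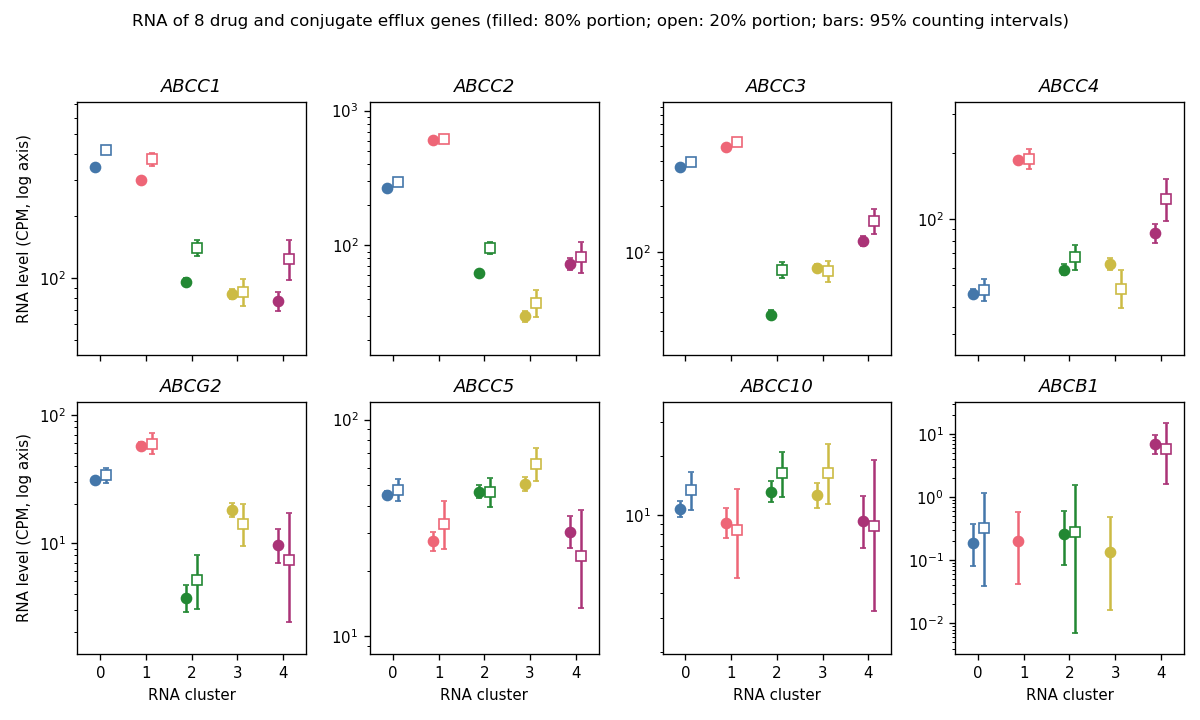
RNA level in CPM (vertical axis, logarithmic) of 8 drug and conjugate efflux genes in RNA clusters 0 to 4, with filled circles for the 80% portion, open squares for the 20% portion and bars for 95% counting intervals. Clusters without a UMI are not drawn. ABCC1, ABCC2 and ABCC3 have 2 high clusters, ABCC4 has its highest point in cluster 1, and ABCB1 has its only points above 5 CPM in cluster 4.

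Reference promoters of the efflux genes were read next to these levels, each running from 250 bases before to 50 bases after a start (RefSeq, GRCh38.p14, 5′ to 3′ on the strand of the gene). They are shown because the RNA of these 3 genes was highest in cluster 1 while their letters differ. In the ABCC2 promoter (chr10:99782390-99782689, plus strand) capitals mark TATAAA. In the ABCC4 promoter (chr13:95301402-95301701, minus strand) and an ABCG2 promoter (chr4:88159241-88159540, minus strand) they mark the antioxidant response element TGACNNNGC on either strand. The ABCG2 window lies only partly in the start peak chr4:88158526-88159407.
ABCC2: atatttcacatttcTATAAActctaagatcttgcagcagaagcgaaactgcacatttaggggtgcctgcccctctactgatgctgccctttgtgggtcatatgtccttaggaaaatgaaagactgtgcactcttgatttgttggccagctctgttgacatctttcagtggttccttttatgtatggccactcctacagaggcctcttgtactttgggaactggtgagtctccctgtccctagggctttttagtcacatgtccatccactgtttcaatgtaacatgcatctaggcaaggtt
ABCC4: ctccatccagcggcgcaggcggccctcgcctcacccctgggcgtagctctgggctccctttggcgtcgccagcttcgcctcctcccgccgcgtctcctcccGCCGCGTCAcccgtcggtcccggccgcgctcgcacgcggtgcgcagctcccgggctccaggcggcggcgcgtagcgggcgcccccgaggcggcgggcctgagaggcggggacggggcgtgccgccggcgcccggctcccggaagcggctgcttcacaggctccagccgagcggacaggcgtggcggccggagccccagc
ABCG2: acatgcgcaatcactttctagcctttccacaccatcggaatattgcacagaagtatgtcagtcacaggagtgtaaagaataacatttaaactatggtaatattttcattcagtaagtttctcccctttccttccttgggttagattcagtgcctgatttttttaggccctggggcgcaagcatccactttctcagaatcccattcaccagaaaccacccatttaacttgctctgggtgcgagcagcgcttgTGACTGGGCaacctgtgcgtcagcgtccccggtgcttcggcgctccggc

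The ABCC2 window was poor in G and C (45.0%) and held none of TGACNNNGC, TGANTCA (AP-1), GCGTG (xenobiotic response), GGGCGG (GC box), CCAAT or CACGTG (E-box) on either strand. The ABCC4 window was 79.7% G and C, with 1 TGACNNNGC and 3 GCGTG. The ABCG2 window shown held 1 TGACNNNGC and no other of these motifs. RefSeq lists further ABCG2 windows, and these lacked the antioxidant response element. The xenobiotic response, GC box and E-box letters were each present among those further windows, so the window shown does not stand for all ABCG2 promoters. A promoter entry was found for 35 of the 45 ABC genes, 53 windows in all. Among those without one were ABCA4, ABCA8, ABCB4, ABCB5, ABCC1, ABCC3, ABCC8 and ABCG1. TGACNNNGC was in 12 of the 53 windows (22.6%) and in 13.3% of all 35116 RefSeq windows of this length, CCAAT in 22.6% against 34.6%, GGGCGG in 47.2% against 45.0%, GCGTG in 43.4% against 36.5%, TGANTCA in 11.3% against 7.71%, TATAAA in 15.1% against 11.5% and CACGTG in 17.0% against 7.26%. Windows of the same gene overlap in several cases, and a match says only that the letters are present.

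Among the exporters of sterols and phospholipids, ABCA1 and ABCG1 passed the minimum, and their patterns differed. ABCA1 (ENSG00000165029, chr9:104928139-104928155, minus strand), which loads cholesterol and phospholipid onto apolipoprotein A-I, had 143 CPM in cluster 0, 19.5 in cluster 1, 57.2 in cluster 2, 140.3 in cluster 3 and 93.4 in cluster 4. Cluster 1 was the lowest at 0.340 of cluster 2, and 14.4% of its nuclei had a UMI compared with 77.0% of cluster 0 (8.09% and 45.8% after thinning). Within cluster 3 the level was uneven, with 101 CPM in 3a and 200.3 in 3b. The 20% portion gave 166 CPM in cluster 0, 16.2 in cluster 1, 65.0 in cluster 2, 142 in cluster 3 and 154 in cluster 4, with cluster 1 again far below the rest.

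ABCG1, which passes cholesterol on to lipoprotein particles, was read at 11.8 CPM in cluster 0, 6.30 in cluster 1, 10.3 in cluster 2, 1.41 in cluster 3 and 1.87 in cluster 4, with a step of 3.37-fold between clusters 1 and 4. It was neither called high nor low. The sterol half-transporters ABCG5 and ABCG8 had 15 and 28 UMIs and ABCG4 had 7, too few to place.

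Of 8 A-subfamily lipid transporters that passed the minimum, beside ABCA1, 4 were called high and 3 low, against 15.6% and 13.9% of all genes. Among the 4, ABCA4 and ABCA13 passed the minimum only through their UMIs in cluster 0, where they were called high. The count of high calls is therefore a description only. ABCA4 (ENSG00000198691, chr1:94063249-94121148, minus strand), the retinoid flippase of photoreceptors, had 14.8 CPM in cluster 0, 1.08 in cluster 1, 1.99 in cluster 2, 2.02 in cluster 3 and 3.11 in cluster 4, and cluster 0 exceeded cluster 4 by 4.76-fold (95% counting interval 2.86 to 8.56). The 20% portion gave 20.1 CPM in cluster 0 and 3.66 or less elsewhere.

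ABCA10 (ENSG00000154263, start at chr17 position 69244846, minus strand), 1 of 5 neighbouring A-subfamily genes on chromosome 17 (with ABCA5, ABCA6, ABCA8 and ABCA9), had 3.22 CPM in cluster 0, 2.98 in cluster 1, 27.2 in cluster 2, 1.28 in cluster 3 and 1.45 in cluster 4. Cluster 2 was 8.46-fold (95% counting interval 6.99 to 10.3) above cluster 0, the largest ratio among the 31 genes, and the 20% portion gave 9.59-fold. With nuclei called as doublets removed the ratio was 12.4. ABCA5, the neighbour upstream of ABCA10 on the minus strand, was also highest in cluster 2 with 69.6 CPM, over 38.8 in cluster 1, and not called. ABCA6, ABCA8 and ABCA9 had 17, 37 and 12 UMIs in all.

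The ABCA10 promoter at its deposited start (chr17:69244799-69245098, minus strand) is shown because no peak lay there although the RNA was high in cluster 2, and capitals mark TATAAA on either strand, here as its reverse complement TTTATA.
ABCA10: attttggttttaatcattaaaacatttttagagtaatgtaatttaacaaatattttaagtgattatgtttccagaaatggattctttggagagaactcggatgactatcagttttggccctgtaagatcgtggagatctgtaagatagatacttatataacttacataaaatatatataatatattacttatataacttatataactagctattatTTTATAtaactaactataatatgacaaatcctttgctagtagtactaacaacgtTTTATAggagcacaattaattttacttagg

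This window was 25.0% G and C and held none of the other motifs searched. RefSeq lists a further ABCA10 window, chr17:69228775-69229074, whose start lies outside the deposited interval, and it held 1 TGANTCA and 2 CCAAT.

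ABCA12 (ENSG00000144452, chr2:215032086-215138626, minus strand), the lipid transporter of epidermal lamellar granules, had 6.03 CPM in cluster 0, 2.10 in cluster 1, 0.0524 in cluster 2, 3.17 in cluster 3 and 17.4 in cluster 4. Cluster 4 was 2.89-fold (95% counting interval 2.23 to 3.72) above cluster 0, and cluster 2 held a single ABCA12 UMI (0.00133 to 0.292 CPM). The 20% portion gave 38.1 CPM in cluster 4 and 8.48 in cluster 0. Cluster 3a had 5.03 CPM and 3b 0.339. ABCA13 (ENSG00000179869, start at chr7 position 48171458, plus strand), the longest gene of the family, had 8.53 CPM in cluster 0, 0.407 in cluster 1, 0.157 in cluster 2, 1.62 in cluster 3 and 3.94 in cluster 4, with cluster 0 2.16-fold (95% counting interval 1.36 to 3.63) above cluster 4. Cluster 2 was called low on 3 UMIs, and in the 20% portion the lowest was cluster 1. The lead of cluster 0 was not seen in the 20% portion, where cluster 4 had 8.80 CPM and cluster 0 8.48.

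ABCA3 (ENSG00000167972, chr16:2329724-2340746, minus strand), the surfactant lipid transporter of lamellar bodies, had 18.9 CPM in cluster 0, 17.1 in cluster 1, 2.46 in cluster 2, 19.0 in cluster 3 and 12.3 in cluster 4. Cluster 2 was at 0.201 of cluster 4, the lowest of the other 4. The 20% portion gave 22.2 CPM in cluster 0, 26.1 in cluster 1, 5.91 in cluster 2, 20.3 in cluster 3 and 7.34 in cluster 4, and cluster 2, though lowest, was no longer called low. The call was also lost with 5 clusters drawn from ATAC. Of 11 lamellar body and surfactant genes, 4 passed the minimum: NAPSA, LPCAT1, NKX2-1 and CTSH. NAPSA was called high in cluster 4, with 70.4 CPM, and PGC had no UMI. NKX2-1, the lung lineage factor, had 50.1, 2.24, 2.41, 43.7 and 75.4 CPM in clusters 0 to 4, while the surfactant protein genes SFTPA1, SFTPA2, SFTPB, SFTPC and SFTPD had 35 UMIs or fewer each. ABCA2 and ABCA7 were called in neither direction, with highest to lowest ratios of 2.09 and 2.48.

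Of the remaining B and C subfamily genes, ABCC6 and ABCC9 passed the minimum and both had a low call (13.9% of all genes). ABCC6 (ENSG00000091262, chr16:16165943-16223471, minus strand), needed for ATP release from liver and mutated in pseudoxanthoma elasticum, had 9.60 CPM in cluster 0, 6.10 in cluster 1, 5.45 in cluster 2, 1.82 in cluster 3 and 4.36 in cluster 4, and cluster 3 was at 0.417 of the next lowest. In the 20% portion no ABCC6 UMI was read in cluster 3 of 2067874 UMIs, which allows up to 1.45 CPM by the limit of 3 counts and 1.78 by the exact interval. ABCC6 has near-identical pseudogene copies on the same chromosome, so its counts are less certain than those of the other genes. ABCC9 (ENSG00000069431, chr12:21936674-21942529, minus strand), the sulfonylurea receptor subunit of potassium channels in muscle, had 1.43 CPM in cluster 0, 4.27 in cluster 1, 0.629 in cluster 2, 14.1 in cluster 3 and 19.7 in cluster 4, and cluster 2 was at 0.440 of cluster 0. Its channel partner KCNJ8 had 50 UMIs. ABCC8, the pancreatic sulfonylurea receptor, had 64 UMIs, of which 41 were in cluster 1 (2.78 CPM), and its partner KCNJ11 had 3 UMIs. ABCB5, ABCB11, ABCB4, ABCC11 and ABCC12 had 19, 45, 13, 124 and 11 UMIs.

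Of 8 genes of organelles that passed the minimum 1 was called high and none low, where 15.6% and 13.9% of all genes were called, and their median ratio of highest to lowest cluster, 2.32, was near the 2.52 of all genes. ABCD2, a peroxisomal importer of fatty acids, had 5 UMIs, the fewest of the family.

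ABCD3 (ENSG00000117528, chr1:94418389-94418479, plus strand), a peroxisomal importer of branched fatty acids and bile acid precursors, and ABCB6, a porphyrin transporter, were highest in cluster 2 without a call. ABCD3 had 66.9 CPM in cluster 0, 107 in cluster 1, 181 in cluster 2, 59.4 in cluster 3 and 107 in cluster 4, and cluster 2 led cluster 1 by 1.69-fold (95% counting interval 1.59 to 1.79). Summed, the genes within 1 Mb of ABCD3 were also higher in cluster 2 than in cluster 1, by 1.67-fold in RNA, and the peaks within 1 Mb by 2.50-fold. The RNA sum was highest in cluster 4, with 2059 CPM against 1461 in cluster 2, where ABCD3 itself was highest. Around ABCA10 the same sums gave 0.954 and 0.879 between clusters 2 and 0, and around ABCC2 1.40 and 1.57 between clusters 1 and 0, below the ratios of the genes themselves. Whether the number of gene copies differed between clusters was not tested. The ABCD3 promoter (chr1:94418139-94418438, plus strand) is shown as a contrast to that of ABCA10, since it lies in a peak that was highest where the RNA was highest, and capitals mark its 4 GC boxes (GGGCGG on either strand).
ABCD3: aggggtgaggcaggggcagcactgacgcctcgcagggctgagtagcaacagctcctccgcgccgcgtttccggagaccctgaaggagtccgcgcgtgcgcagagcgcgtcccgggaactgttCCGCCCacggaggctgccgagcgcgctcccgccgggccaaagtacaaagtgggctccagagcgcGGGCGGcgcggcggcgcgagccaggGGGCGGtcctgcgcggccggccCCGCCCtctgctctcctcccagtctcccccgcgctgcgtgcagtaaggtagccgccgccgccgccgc

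This window was 75.0% G and C and had 2 GCGTG but no TATAAA or CCAAT. The mitochondrial exporters ABCB8 and ABCB10, the lysosomal ABCB9 and ABCD4 and ABCB6 had highest to lowest ratios between 1.83 (ABCB10) and 4.28 (ABCB6).

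The ATPases without a membrane domain, ABCE1, ABCF1, ABCF2 and ABCF3, which recycle ribosomes or act in initiation and in the sensing of stalled translation, were read in every cluster and had no call and no 2-fold step. Most genes had none either: over all genes 15.6% were called high, 13.9% low and 32.6% had a step. ABCE1 ranged from 96.1 to 148 CPM and ABCF1 from 99.5 to 205. All 4 genes kept their highest cluster in the 20% portion, as did 76.9% of all genes. The lead over the next cluster was only 1.06-fold for ABCE1 and 1.03-fold for ABCF3. Of 7 partners of ABC proteins 5 passed the minimum, among them PELO, HBS1L and GCN1, which act with ABCE1 or on stalled ribosomes, and PEX3 and PEX19, which bring proteins to peroxisomes. None had a call, to be read against the same 15.6% and 13.9% of all genes.

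ATAC counts at the starts were summed over the peaks within 1000 bp of the start interval that the deposited gene table gives, and expressed as CPM of all ATAC counts in the cluster. A start peak was present for 37 of the 45 genes. The 8 without one were ABCA6, ABCA8, ABCA9, ABCA10, ABCA13, ABCB4, ABCB11 and ABCC12, of which ABCA10 and ABCA13 passed the RNA minimum. Start intervals of some genes were long, so that the sum for ABCG2 held 7 peaks and that for ABCC6 held 11, most of them within introns or exons. The only peak in the ABCB1 interval, chr7:87627861-87628773, overlapped an exon of RUNDC3B and an intron of ABCB1, and the ABCC11 sum included the start of LONP2. ABCG5 and ABCG8 share 1 peak.

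With at least 100 ATAC counts, 34 genes could be compared, and 4 were called high, against 10.5% of 21149 genes. These were ABCC2, ABCC3, ABCB5 and ABCC8, each in cluster 1. ABCB5 and ABCC8 passed the minimum of 100 counts only through cluster 1 itself, so their calls are not independent of the minimum. The share of all genes called high in cluster 1 alone was not computed, so the placing of the 4 genes in cluster 1 has no comparison. ABCC2 (peak chr10:99782147-99783012, at an exon of ABCC2 only) had 4.31 CPM in cluster 0, 22.8 in cluster 1, 3.21 in cluster 2, 1.57 in cluster 3 and 3.62 in cluster 4, 5.29 times as much in cluster 1 as in the next cluster. In the 20% portion, on 81 counts, it had 5.76 CPM in cluster 0, 15.9 in cluster 1, 4.19 in cluster 2, 1.66 in cluster 3 and 2.67 in cluster 4. ABCC3 (chr17:50634339-50635242, at an exon of ABCC3) had 15.4 CPM in cluster 0, 40.1 in cluster 1, 11.4 in cluster 2, 8.94 in cluster 3 and 15.5 in cluster 4, a ratio of 2.59. In the 20% portion, on 216 counts, it had 14.1 CPM in cluster 0, 34.9 in cluster 1, 15.1 in cluster 2, 6.63 in cluster 3 and 20.1 in cluster 4, and cluster 1, though highest, was less than 2-fold above the next. The counting interval in cluster 1 was 19.0 to 27.1 CPM for ABCC2 and 35.1 to 45.7 for ABCC3. In both genes the start ATAC level of cluster 0 was close to the highest of clusters 2 to 4, whereas its RNA was at least 3.11-fold above each of them.

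ABCB5 and ABCC8, which have hardly any RNA here, reached 5.22 and 5.48 CPM in cluster 1 on 111 and 142 ATAC counts in all, with ratios of 2.21 and 2.69. Their counting intervals in cluster 1 were 3.51 to 7.47 and 3.72 to 7.78 CPM. These overlapped the intervals of cluster 2, the next highest, which were 1.18 to 4.22 and 0.954 to 3.80 CPM. In the 20% portion ABCB5 had 23 start counts, with cluster 1 again highest. That portion has its own set of 89384 peaks, against 158342 in the 80% portion. It gave no counts at the ABCC8 start, which is not a reading of closed chromatin there. The start of ABCC1 differed little between clusters, with 15.3 CPM in cluster 0, 13.1 in cluster 1, 13.0 in cluster 2, 11.0 in cluster 3 and 10.6 in cluster 4, and that of ABCC4 had 19.8 CPM in cluster 0, 22.1 in cluster 1, 26.2 in cluster 2, 17.8 in cluster 3 and 18.9 in cluster 4, although the RNA of both differed by more than 4-fold between the highest and the lowest cluster. ABCD3 had 46.7 CPM in cluster 0, 55.5 in cluster 1, 137 in cluster 2, 40.8 in cluster 3 and 72.4 in cluster 4, with cluster 2 highest as in its RNA. The start was not called, at 1.89-fold over the next cluster. The peaks within 1 Mb were also higher in cluster 2 than in cluster 1, by 2.50-fold, so the contrast is not particular to this start. At ABCG1, whose interval holds 8 peaks, the sum was 83.4, 48.9, 60.9, 21.0 and 12.9 CPM in clusters 0 to 4, and clusters 3 and 4 were lowest in RNA and ATAC alike. A step of at least 2-fold in start ATAC was found in 6 of the 34 genes (ABCC2, ABCC3, ABCB5, ABCC8, ABCD2 and ABCG1), against 27.4% of all genes.

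**Figure D4:**
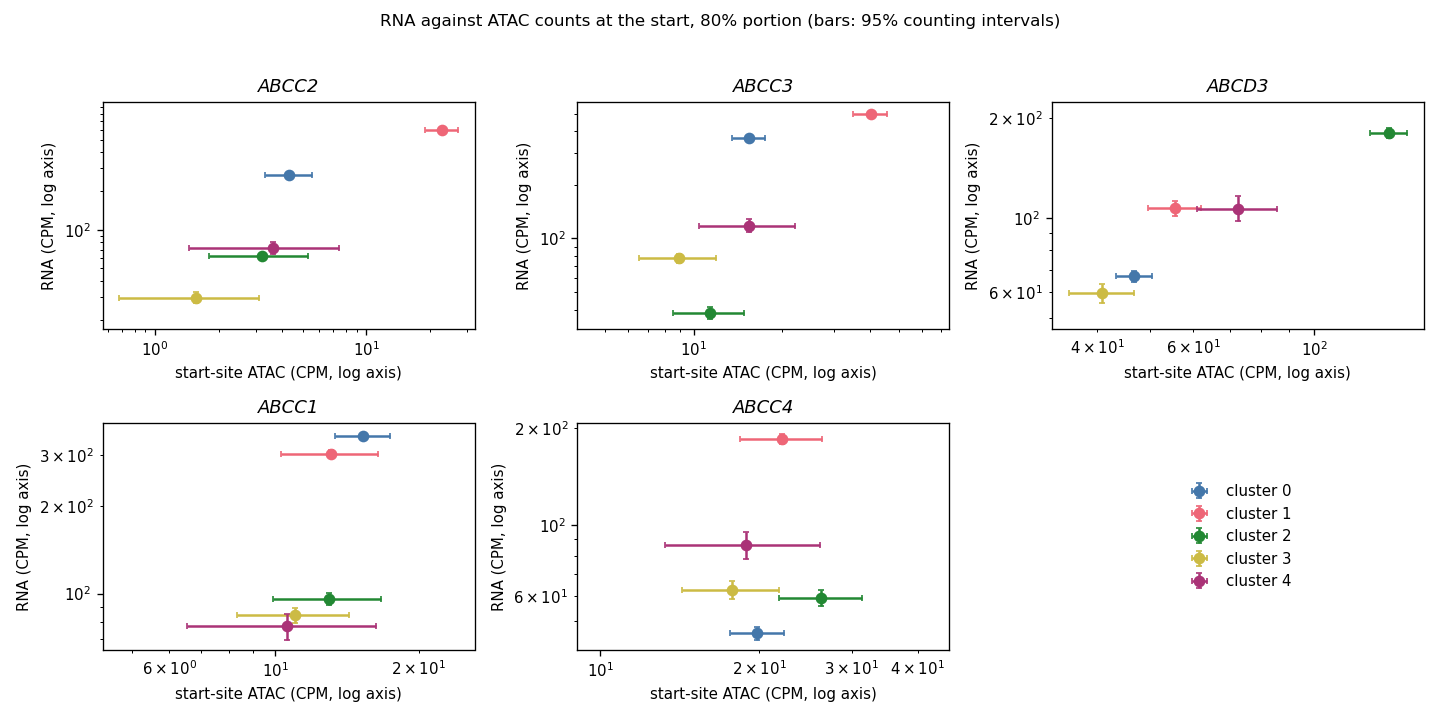
RNA level (vertical axis, CPM) against ATAC counts at the start (horizontal axis, CPM), both logarithmic, for 5 ABC genes in the 5 RNA clusters of the 80% portion, with 95% counting intervals. ABCC2 and ABCC3 have their rightmost point in cluster 1, the points of ABCC1 and ABCC4 spread mainly along the RNA axis, and cluster 2 stands apart on both axes for ABCD3.

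Across 28 genes that passed both minimums, 14 had the same highest cluster in RNA and at the start (50.5% of 13801 genes). Over the 5 clusters, which share their nuclei between the 2 assays, the correlation of RNA with start ATAC had a median of 0.673 for these genes and 0.683 for all genes. The median ratio of highest to lowest cluster was 1.76 in ATAC and 3.54 in RNA for the 28 genes, and 2.02 and 2.45 for all genes. Of the 7 genes called high in RNA 5 could be compared at the start, and 2 (ABCC2 and ABCA12) had the same highest cluster, against 74.1% of all genes called high. The 3 peaks of ABCA12 all lie in its introns. Of the 9 genes called low in RNA 7 could be compared, and 5 (ABCA1, ABCA3, ABCA12, ABCC2 and ABCG2) were lowest in the same cluster at the start, against 66.9% of all genes called low.

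Peaks farther away, from 1000 bp to 100 kb from the start, were read for the 13 genes with an RNA call. They had 164 such peaks with at least 100 counts, of which 35 (21.3%) had a highest cluster at least 2-fold above the next, against 24.3% of all such peaks near any gene, and 22 of the 35 were highest in the cluster where the RNA was highest. Taking for each gene the peak with the largest ratio, 7 of 13 had the RNA's highest cluster. These peaks were picked for their contrast and are given as a description. The share of matches with the RNA's highest cluster was not computed over all genes, so neither count has a comparison.

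For ABCC2 it was chr10:99775512-99776484, in no annotated gene, 6155 bp from the start, with 7.15 CPM in cluster 0, 30.8 in cluster 1, 8.14 in cluster 2, 6.09 in cluster 3 and 8.53 in cluster 4. All 3 contrasted peaks near ABCC2 were highest in cluster 1. For ABCC4 it was chr13:95258487-95259370 in an intron of ABCC4, with 17.9 CPM in cluster 1 and at most 3.88 elsewhere, so that cluster 1 stood out at this intronic peak though not at the start. Of the 4 contrasted peaks near ABCC4, 2 were highest in cluster 1.

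For ABCA10 it was chr17:69196157-69197053, which overlapped an exon of ABCA10 and lay 47792 bp from its start. It had 0.274 CPM in cluster 0, 0.442 in cluster 1, 16.6 in cluster 2, 0.393 in cluster 3 and 0.517 in cluster 4, a ratio of 32.1. The peak held 174 ATAC counts in all, few of them outside cluster 2, so the size of this ratio is uncertain. The 20% portion gave no values for this peak. For ABCA13 an intronic peak, chr7:48200758-48201670, had 10.7 CPM in cluster 0 and at most 1.08 elsewhere. In the RNA's highest cluster lay 2 of the 3 contrasted peaks near ABCA10 and 2 of the 5 near ABCA13.

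ABCC3 had 36 peaks in its window, and 7 of its 8 contrasted peaks were highest in cluster 1, as was its RNA. Its most contrasted peak was the exception: chr17:50672951-50673863, over an exon of ABCC3, had 18.3 CPM in cluster 0, 2.83 in cluster 1, 1.71 in cluster 2, 3.83 in cluster 3 and 4.14 in cluster 4. The most contrasted peaks of ABCA4 and ABCA1 were both highest in cluster 2, with 17.5 and 12.3 CPM, where the RNA of these genes was not highest, and that of ABCC6 was highest in cluster 3, where its RNA was lowest.

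**Figure D5:**
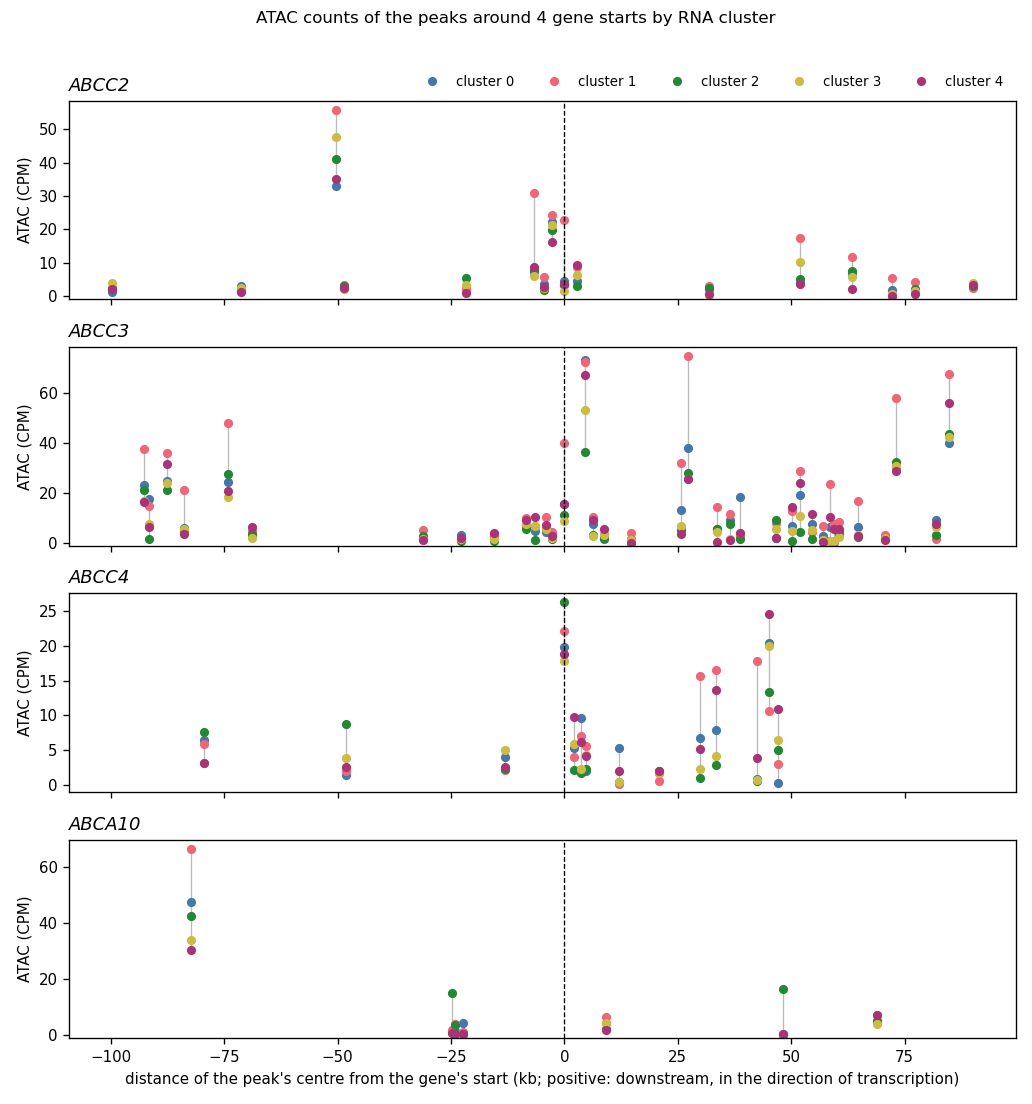
ATAC counts in CPM (vertical axis) of every peak with at least 100 counts within 100 kb of the starts of ABCC2, ABCC3, ABCC4 and ABCA10, by the distance of the peak's centre from the start (horizontal axis, kb), with 1 colour per RNA cluster and grey lines that join the lowest and highest cluster. Cluster 1 is highest at the start of ABCC2 and just upstream of it, and cluster 2 is highest at the peak about 48 kb into ABCA10, which has no peak at its start.

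Genes outside the family were read from lists for comparison. All 18 genes of a list on the NRF2 pathway, which answers oxidative stress and is known to act on several ABCC genes, passed the minimum, 3 were called high (AKR1B10, AKR1C2 and AKR1C3, all in cluster 1; 15.6% of all genes), none low, and 8 had exactly clusters 0 and 1 above a 2-fold step, the arrangement of ABCC1, ABCC2 and ABCC3 (0.955% of all genes). SLC7A11, the cystine importer, had 323, 456, 45.9, 48.3 and 62.7 CPM in clusters 0 to 4. Other genes of the list differed: GCLM was highest in cluster 2 with 445 CPM, and NQO1 had no 2-fold step. The factor itself, NFE2L2, and its inhibitor KEAP1 had no such step. NFE2L2 had between 160.1 and 251 CPM and KEAP1 between 25.4 and 63.7. The arrangement had been picked from the values of the ABCC genes, and whether the NRF2 pathway acted on them here was not tested.

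Of 12 receptors and factors known to act on ABC genes 10 passed, with 1 high call (RXRA, cluster 0, 60.7 CPM; 15.6% of all genes) and 1 low call (PPARA, cluster 4, 6.23 CPM; 13.9% of all genes). The xenobiotic receptors NR1I2 and NR1I3 had 21 and 20 UMIs. Of 23 uptake and other drug transport genes 18 passed, 3 were called high (SLC22A3, SLC22A5 and SLC47A1, all in cluster 1) and 4 low, shares read against the 15.6% of all genes called high and 13.9% called low. Of the superfamily members under other symbols, CFTR, the chloride channel, was high in cluster 0 with 8.27 CPM against 0.881 or less, and the peptide transporters TAP1 and TAP2 were called in neither direction.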

How the data were processed

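Each nucleus of the mixture of 5 lines gave both RNA and ATAC. The authors ran Cell Ranger ARC 2.0.0 on GRCh38 and deposited whole-number counts for each feature and called barcode, UMIs on gene rows and ATAC counts on peak rows. Their gene annotation was not given in the sources used. The 80% portion held 95455518 UMIs and 63920767 ATAC counts in 158342 peaks, and the 20% portion held 14346346 and 12850543 in 89384 peaks. Matrices of both portions counted together and long-read barcode statistics were not used.

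The deposited counts were clustered in Seurat 5.3.0 (R 4.3.3) on 2000 variable genes less the ABC genes among them (7), with 30 principal components, 20 neighbours and the lowest Louvain resolution from 0.02 to 1 that gave at least 5 clusters of 1% of nuclei or more. The nuclei of the 20% portion were assigned by correlation with cluster profiles. Everything else was computed in Python 3.11.15 with scipy 1.17.1. Counts were summed per cluster, with exact Poisson intervals, on halved ATAC counts since 90.1% of ATAC values were even. A gene needed 200 UMIs or 100 ATAC counts, and a ratio against a cluster without counts used 3 counts in its place. Scrublet, run in scanpy 1.11.5 with a rate of 0.06, marked 385 nuclei, which were kept, and 156 nuclei lay under 1000 ATAC counts or 500 UMIs. Peaks were placed on GENCODE 44, in which the start of 42 of the 45 ABC genes lay within 500 bp of the deposited interval.

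The ABC genes and all lists were chosen with earlier results of these data known. Some genes entered the counts but are not reported here by name. Values per cluster were otherwise given for every ABC gene with a high or low RNA call, the 3 with most UMIs, the 8 efflux genes and those called at the start in ATAC. ABCA5, ABCD3, ABCE1, ABCF1, ABCG1, the distal peaks and the genes of other lists given with values were chosen after these had been seen, and so were the step rule and the division into 6 clusters.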

Additional observations from a re-analysis of the deposited data

How the results depend on the processing

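No paired analysis was possible because each portion gave 1 RNA and 1 ATAC library and the clusters carry no replicate numbers. Of the counts and medians recomputed under each alternative, 67 stayed within 1.5 times the reported value and 15 did not. For the other 15 the cause was not tested. The number of ABC genes called high, 7, was 4 with at least 500 UMIs, 12 with at least 1 UMI, 13 at a fold of 1.5 and 2 (ABCA4 and ABCA10) at a fold of 3. These counts were over 27, 45, 31 and 31 ABC genes, against 13.2%, 24.8%, 30.5% and 8.25% of all genes. The number called low, 9, was 3 with clusters drawn from ATAC, at 5 as at 6 clusters, and 2 at a fold of 3. Each count was over 31 genes. Over all genes the low shares were 10.3% with 5 ATAC clusters, 8.81% with 6 and 6.38% at a fold of 3. The number with a step, 15, was 26 of 45 with at least 1 UMI and 24 of 31 at a fold of 1.5. The shares of all genes were 57.5% and 57.4%. The median ratio of the highest to the lowest cluster, 4.28, was 2.73 with ATAC clusters. The median share of nuclei with a UMI, 40.9%, was 16.1% after thinning to 5000 UMIs. At the starts the 4 ATAC calls became 1 of 26 in the 20% portion, 2 of 28 with at least 400 counts and 1 of 34 at a fold of 3. Over all genes these shares were 6.18%, 6.32% and 4.21%. The 14 genes with the same highest cluster in RNA and ATAC became 7 of 25 in the 20% portion, against 43.6% of all genes. Among ratios of single genes 41 were alike, 7 moved and 1 changed direction: that of ABCA13 over its next cluster was 0.963 in the 20% portion. With doublet calls removed ABCA13 and ABCC3 lost their low calls, with 6 RNA clusters ABCC2, ABCC3 and ABCC6 did, and in the 20% portion ABCA3, ABCA13, ABCC3 and ABCG2 did. Scaling by the median of ratios shifted clusters by -0.0497 to 0.0342 in log2 and changed no high call, but the low call of ABCC3 was lost. Genes with few UMIs, above all the 14 under the minimum, could not be placed at this depth.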
